A study of Mus musculus with 4 samples.

Results

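The antioxidant genes described here are 40 genes of the glutathione, thioredoxin and NRF2 systems, chosen by name and found on the array through the gene name or transcript accession of each probe. All 40 had at least 1 probe, 62 probes in all, out of 27670 gene names on the array. RNA was taken from the cultured sub-lines 4T1-A and 4T1-S, both derived from 4T1, a carcinoma cell line grown from a BALB/c mouse mammary tumour, and each was hybridised to 2 one-colour Agilent arrays. No treatment, time or genetic change is given for either sub-line, and both share the 4T1 parent. The labels do not say whether a sub-line is a single clone or whether separate cultures were used for its arrays, so the p-values rest on a spread between arrays that may be purely technical. In bulk RNA, fewer cells expressing a gene and less RNA of it per cell cannot be told apart. The submitters call 4T1-S highly immunogenic, and the comparison asks how the antioxidant genes differ between it and 4T1-A. Each difference is given on the log2 scale as 4T1-S minus 4T1-A ± SE from limma, a linear model fitted to all genes, with 2 arrays per sub-line.

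NRF2, encoded by Nfe2l2, is a transcription factor that KEAP1 holds in the cytoplasm and hands to the proteasome until oxidants or electrophiles modify KEAP1. Freed NRF2 binds antioxidant response elements and induces genes that make glutathione, reduce thioredoxin and detoxify reactive compounds. Peroxidases and peroxiredoxins then spend glutathione or thioredoxin to remove peroxides, and glutathione transferases couple glutathione to electrophiles. In carcinoma cells the same genes are known for their part in resistance to oxidative stress and to drugs.

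Between 54.9 and 59.2 percent of the spots on an array were well above background, and 38 of the 40 antioxidant genes could be tested, 35 of them above background on all 4 arrays. Gpx3 and Sod3, which encode secreted enzymes, were not well above background on any array. All 4 arrays lay on 1 slide with 4T1-A at the first positions and 4T1-S at the others, so slide position and sub-line cannot be told apart. All 8 markers of mammary epithelium were above background on all arrays, although 5 of them, including Epcam (-3.78 ± 0.21) and Krt14 (-2.06 ± 0.19), were lower in 4T1-S. Markers of leukocytes summed to between 0.449 and 0.658 of the 75th percentile per array over 7 genes, with Itgam and Adgre1 not well above background anywhere and Ptprc above it on 1 array of 4T1-S. Fibroblast markers summed to 0.731 and 0.960 in 4T1-A, against 1.45 and 1.41 in 4T1-S over 8 genes. Pdgfra gave the largest part, at 0.324 and 0.529 against 0.780 and 0.758, and did not pass with limma (adjusted p = 0.0740). Col1a2 (0.53, adjusted p = 0.128) and Col3a1 (0.59, 0.0975) did not pass either. Col1a1 was at least 2.59-fold higher (adjusted p = 0.00520), and Pdgfrb and Lum were not well above background on any array. The part of leukocytes or fibroblasts in the results below was not tested.

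Glutathione transferases held every antioxidant gene that passed the test. Mgst2, a microsomal enzyme that conjugates glutathione and makes leukotriene C4, rose 7.64-fold in 4T1-S. Gsta4, which conjugates the lipid peroxidation product 4-hydroxynonenal, rose 1.93-fold, and Gsta2, an alpha class enzyme, was at least 1.67-fold higher. Gstk1, a kappa class enzyme of mitochondria and peroxisomes, fell 2.19-fold. None of the 24 other tested members passed with limma, among them NRF2 and KEAP1, both glutamate-cysteine ligase subunits, thioredoxin and its reductase, all 6 peroxiredoxins and the superoxide dismutases Sod1 and Sod2. At an unadjusted p under 0.05, 0 of these 24 were higher and 1, Keap1, was lower, against 20.5 and 8.19 percent of all genes tested.

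In counts, limma called 3 of the 38 tested members higher and 1 lower, or 10.5 percent, against 6.96 percent of all 16172 genes tested at an adjusted p under 0.05 (Benjamini-Hochberg). By direction, 7.89 percent of the members rose against 3.95 percent of all genes, and 2.63 percent fell against 3.01 percent. Gsta2, among those that rose, could be tested only through the 4T1-S arrays, where it was brighter. With the filter on all 4 arrays, 2 of 35 members were higher and 1 lower, against 303 and 305 of 14203 genes. Which members were called depended on the array left out, and only Mgst2 passed whichever it was. Arrays of the sub-lines did not overlap for 14 members higher in 4T1-S and 8 lower, or 36.8 and 21.1 percent, close to the 40.6 and 18.5 percent of all genes. The median difference of the members was 0.16 on the log2 scale, that of all genes tested 0.13. Scaling to the array median moved the latter to -0.16 and left 14 of the 38 members above 0 in place of 26, so small differences have no direction of their own. With that scaling the calls over all genes split into 189 higher and 878 lower, against 639 and 487 with the 75th percentile, 266 and 465 with quantile normalization, 250 and 533 with cyclic loess and 148 and 240 with normexp.

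**Figure D1:**
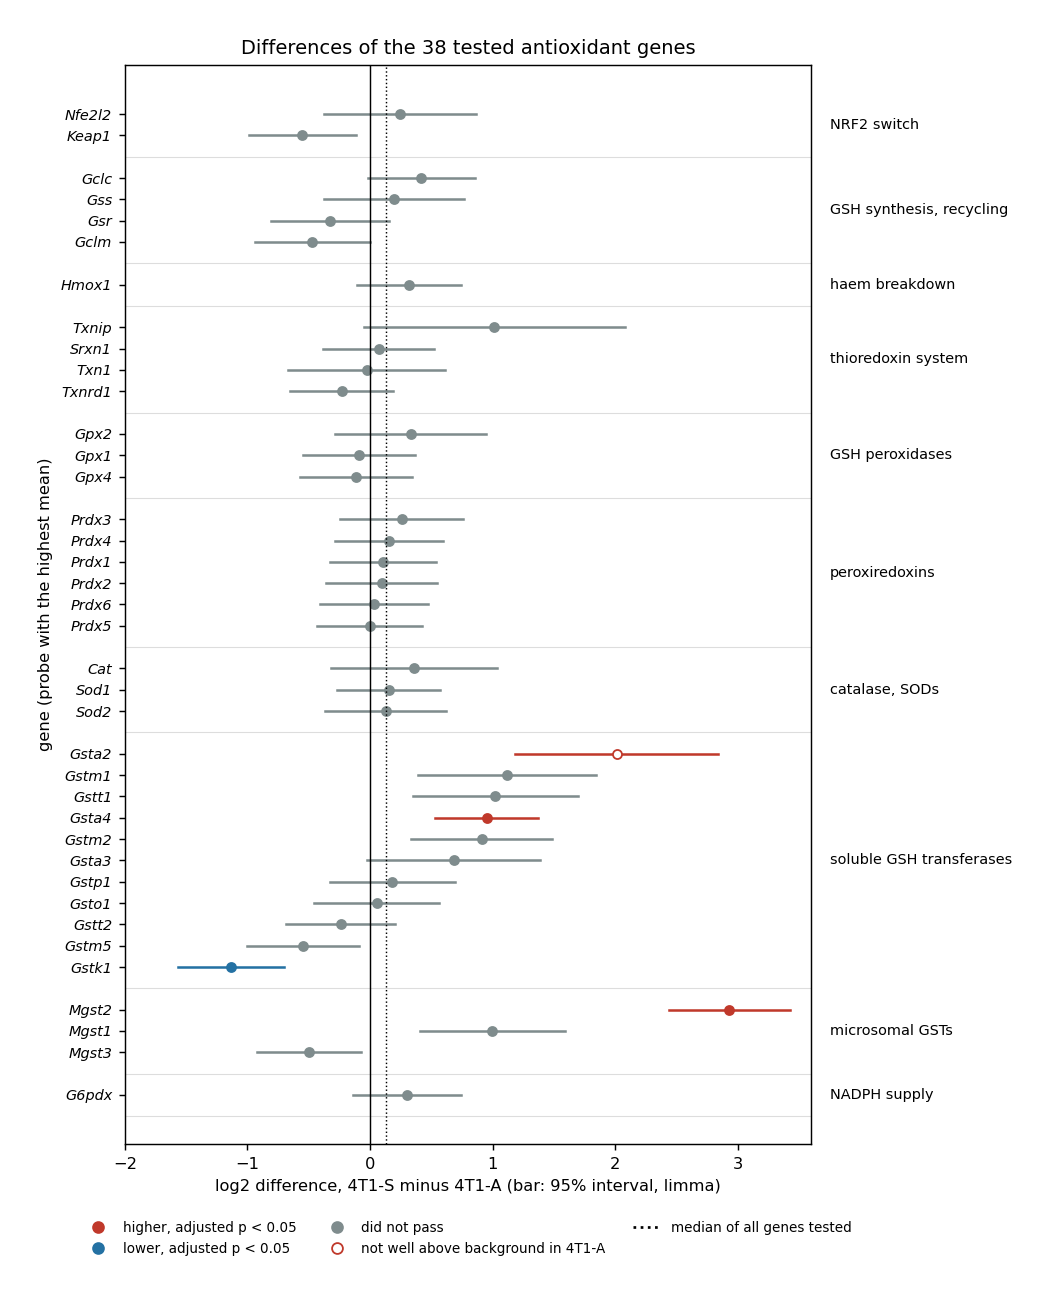
Difference between 4T1-S and 4T1-A on the log2 scale (x axis) for each of the 38 tested antioxidant genes (y axis, grouped by role), with the 95% interval from limma as a bar and colour for the call. Mgst2, Gsta2 and Gsta4 lie to the right and Gstk1 to the left, while the intervals of the 6 peroxiredoxins, Sod1, Sod2, Gpx1 and Gpx4 all include 0.

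Mgst2 had a processed intensity of 1.33 and 1.80 times the array's 75th percentile on the 4T1-A arrays and 11.97 and 11.70 times on the 4T1-S arrays. The 4T1-S arrays nearly coincide and lie far above both 4T1-A arrays. The difference was 2.93 ± 0.21 (log2, SE, n = 2 arrays per sub-line, adjusted p = 1.97e-04). It passed under all 15 alternatives tried, with differences from 2.64 to 3.15.

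Gsta2 was not well above background on either 4T1-A array, at 0.0137 and 0.0312 of the 75th percentile, and was above it on both 4T1-S arrays, at 0.0775 and 0.0894. The fold of at least 1.67 sets the 4T1-S mean against the lowest signal that counted as well above background on the 4T1-A arrays, and the fitted difference had an adjusted p of 0.0180. Leaving out 4T1-S replicate 1 (adjusted p = 0.103) or 4T1-S replicate 2 (0.142) ended the call, and with normexp the difference was 0.26 (adjusted p = 0.361). Quantile normalization (0.0737), cyclic loess (0.0577) and no filter on background (0.113) also ended it.

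Gsta4 stood at 0.128 on both 4T1-A arrays and at 0.244 and 0.252 on the 4T1-S arrays, so the sub-lines were apart by far more than the arrays within them. The difference was 0.95 ± 0.18 (adjusted p = 0.0239). The call ended when 4T1-S replicate 1 (adjusted p = 0.118) or 4T1-S replicate 2 (0.146) was left out, with scaling to the median (0.0848), cyclic loess (0.0613), normexp (0.101) and no filter (0.0850), with the difference between 0.48 and 0.97 throughout.

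Gstk1 went the other way, from 0.963 and 1.09 in 4T1-A to 0.471 and 0.461 in 4T1-S. The difference was -1.13 ± 0.19 (adjusted p = 0.0129). It kept its direction under all alternatives, from -1.42 to -0.95, and it no longer passed when 4T1-S replicate 1 (adjusted p = 0.0879) or 4T1-S replicate 2 (0.109) was left out or with no filter on background (0.0721). Each of these 4 genes is measured by a single probe, so no second probe bears on them.

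**Figure D2:**
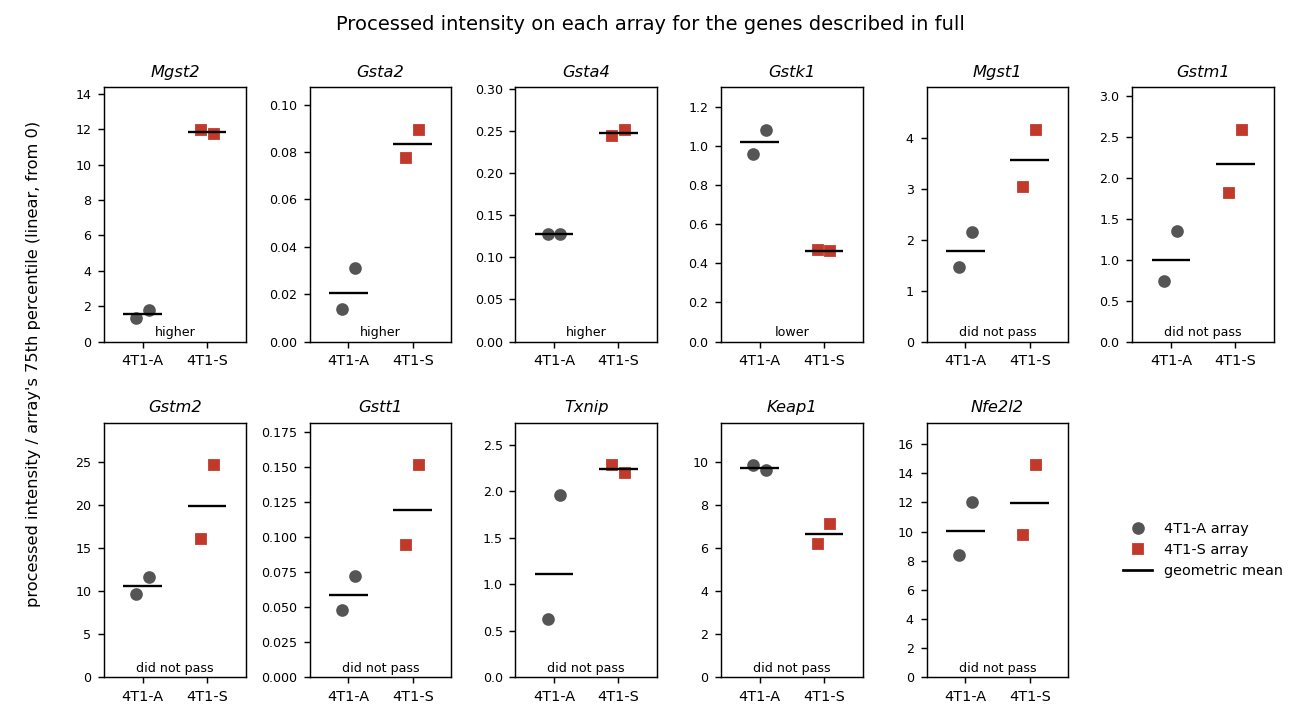
Processed intensity over the array's 75th percentile (y axes, linear from 0, scaled separately for each gene) on every 4T1-A array (circles) and 4T1-S array (squares), with the geometric mean as a line. The sub-lines do not overlap for 10 of the 11 genes shown, and the overlap is in Nfe2l2, where the 4T1-S array at 9.78 lies below the 4T1-A array at 12.1. All but Nfe2l2 and Keap1 are shown for their call or the size of their difference. Of all genes tested, 40.6 percent were higher and 18.5 percent lower in 4T1-S without overlap.

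A further 4 transferases differed by about 2-fold without passing. Mgst1, the microsomal enzyme abundant in liver, stood at 1.47 and 2.15 in 4T1-A, against 3.04 and 4.15 in 4T1-S (1.0 ± 0.26, adjusted p = 0.0579), and its second probe gave 1.08. Gstm1 stood at 0.738 and 1.35 against 1.81 and 2.59 (1.12 ± 0.31, adjusted p = 0.0713), with 0.94 from its second probe, and Gstm2 at 9.65 and 11.7 against 16.1 and 24.6 (0.91 ± 0.25, adjusted p = 0.0672). In Mgst1, Gstm1 and Gstm2 the 4T1-S arrays lay above both 4T1-A arrays but were themselves spread. Gstt1, a theta class enzyme, differed by 1.02 ± 0.29 (adjusted p = 0.0723) from 0.0481 and 0.0717 to 0.0945 and 0.151, with 1 of the 4T1-A arrays above background, and by 0.27 with normexp. Without 4T1-A replicate 2 the 4 differences were larger, from 1.05 for Gstm2 to 1.55 for Gstm1. Without 4T1-A replicate 1 they were smaller, from 0.69 for Gstm1 to 0.77 for Gstm2. Without 4T1-S replicate 2, Gstm2 differed by 0.60 (0.264) and Gstt1 by 0.68 (0.290). Averaging its probes took Mgst1 past the threshold (adjusted p = 0.0434), and an intensity trend with robust fitting did so for Gstm2 (0.0493).

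Of the 14 transferases, 3 rose, 1 fell and 10 did not pass, where 3.95 percent of all genes tested rose and 3.01 percent fell. The transferases had a median difference of 0.80, or 0.71 with Gsta2 at its bound. The other 24 tested members had a median of 0.12. The median of the transferases was 0.51 with scaling to the median, 0.57 with quantile normalization, 0.47 with cyclic loess and 0.22 with normexp, where the medians of all genes were -0.16, 0.068, 0.029 and 0.041. Gsta2, Gsta3 and Gstt1 were above background on both arrays only in 4T1-S, where they were brighter, so the median over those tested favours higher values. With the filter on all 4 arrays, which leaves these 3 genes out, the median of the transferases was 0.18. That of the other members was then 0.12 and that of all genes 0.098, so most of the gap between transferases and other members depended on the filter. Pi class Gstp1 (0.18 ± 0.22) and omega class Gsto1 (0.054 ± 0.22) did not pass, nor did Gstt2 (-0.24 ± 0.19). Gsta3 stood at 0.0670 and 0.0518 against 0.129 and 0.0693, with 1 of the 4T1-A arrays above background (0.68 ± 0.30, adjusted p = 0.188).

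Genes of the mu and theta classes form unbroken runs in the gene order of assembly GRCm38.p6, and differences within each run did not all have the same sign. On chromosome 3, Gstm5 (-0.54 ± 0.20, 95% interval -1.0 to -0.088) lies at one end of a run of 7 mu class genes that also holds Gstm3 (1.09 ± 0.35), Gstm2 and Gstm1. On chromosome 10, Gstt1 (95% interval 0.35 to 1.69) and Gstt2 (-0.68 to 0.21) belong to a run of 4 theta class genes. On chromosome 9, where 4 other coding genes lie between them, the alpha class genes Gsta4, Gsta1 (0.87 ± 0.28, adjusted p = 0.0992) and Gsta2 were all higher in 4T1-S in measured value, and Gsta3 lies on chromosome 1. The differences between neighbours were not tested. Genes within a class are close copies, and a probe of Gsta2, Gsta1 or a mu class gene may also bind the transcript of a relative, so the values of these genes are uncertain.

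**Figure D3:**
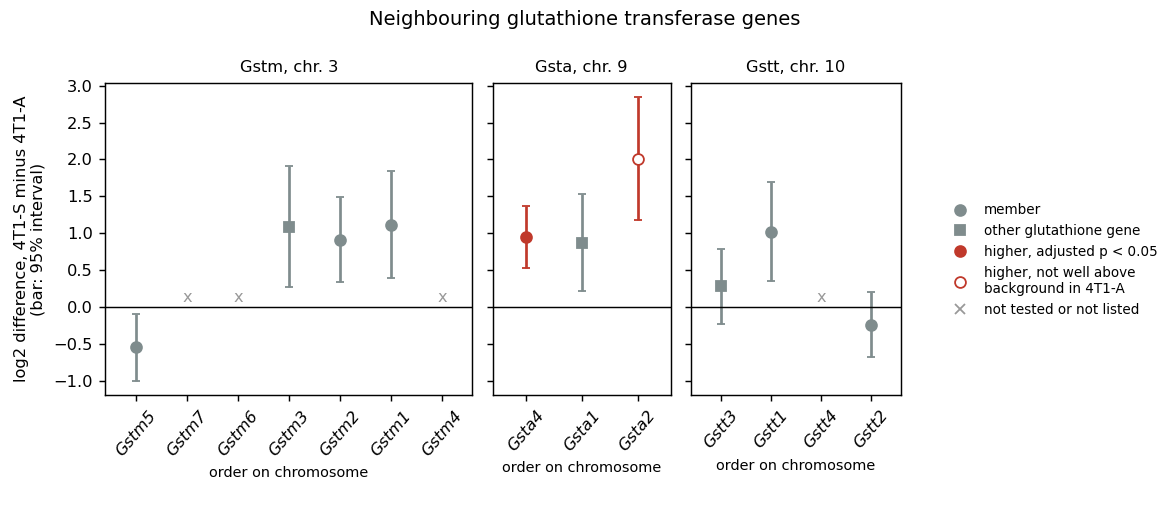
Difference between 4T1-S and 4T1-A on the log2 scale (y axis, 95% interval as bars) for the mu, alpha and theta class transferase genes of chromosomes 3, 9 and 10, placed in their order along the chromosome and not to scale. Gstm5 and Gstt2 lie below 0, and the other tested genes lie above it.

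The 250 bases before and 50 bases after the start of transcription were read from RefSeq's GRCm38.p6 promoter table for 33 of the 40 members, 40 windows in all. The letters TGACNNNGC, the core of the antioxidant response element, were searched on both strands and stood in 10 windows, or 25 percent, against 12.4 percent of all 32851 windows. Windows of Mgst2, Gsta2 and Gstk1, the called genes with a window, did not hold these letters. The members that held them were Nfe2l2, Gclm, Srxn1, Txnrd1, Prdx1, Sod1, Gsta3, Gstm5, Mgst1 and G6pdx. Of these 10, 0 passed the test between the sub-lines with limma, where 6.96 percent of all genes tested did. At an unadjusted p under 0.05 Mgst1 was higher and Gstm5 lower, against 20.5 percent of all genes higher and 8.19 percent lower. A count of 0 in so few genes is no result about them. A match is only a description of the letters, and their absence says nothing of sites elsewhere. To let these windows be compared, the 150 bases before the start are printed for the 3 called genes and for Mgst1 and Prdx1, 5′ to 3′ on the gene's strand, with TGACNNNGC on either strand in capitals. They are chr3:51661029-51661178 (+) for Mgst2, chr9:78347146-78347295 (-) for Gsta2, chr6:42245785-42245934 (+) for Gstk1, chr6:138140377-138140526 (+) for Mgst1 and chr4:116685449-116685598 (+) for Prdx1.
Mgst2: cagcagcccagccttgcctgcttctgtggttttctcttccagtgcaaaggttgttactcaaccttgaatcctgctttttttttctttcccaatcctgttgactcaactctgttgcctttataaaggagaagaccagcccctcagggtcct
Gsta2: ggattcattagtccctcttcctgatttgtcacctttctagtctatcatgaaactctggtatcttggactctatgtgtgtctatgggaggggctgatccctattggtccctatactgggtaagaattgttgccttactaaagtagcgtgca
Gstk1: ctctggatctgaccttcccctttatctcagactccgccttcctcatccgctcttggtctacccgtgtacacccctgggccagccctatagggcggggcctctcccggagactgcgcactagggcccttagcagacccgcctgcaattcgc
Mgst1: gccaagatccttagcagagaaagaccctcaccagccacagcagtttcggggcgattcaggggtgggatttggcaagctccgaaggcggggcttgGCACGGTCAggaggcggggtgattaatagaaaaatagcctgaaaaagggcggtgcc
Prdx1: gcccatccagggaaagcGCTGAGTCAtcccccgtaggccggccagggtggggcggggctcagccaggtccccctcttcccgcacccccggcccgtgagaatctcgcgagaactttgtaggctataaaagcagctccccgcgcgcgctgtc
In Prdx1 the match reads TGACTCAGC on the opposite strand at position -133 from the start, letters found in 0.454 percent of all windows, and it overlaps TGANTCA, the letters of an AP-1 site. In Mgst1 it lies at -56. TGANTCA stood in 5 of the 40 windows (12.5 percent, against 7.81 percent of all windows). Among these, Prdx1, Gstm5 and Srxn1 also hold TGACNNNGC, and Mgst2 and Gstp1 do not.

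No difference was called in the NRF2 switch itself. Nfe2l2 stood at 8.41 and 12.1 in 4T1-A, against 9.78 and 14.6 in 4T1-S, so the sub-lines overlapped and arrays of one sub-line differed by more than the sub-lines did. The difference was 0.25 ± 0.27 (95% interval -0.37 to 0.87), which turned to -0.045 with scaling to the median, and its 4 probes ranged from 0.095 to 0.53. Keap1 stood at 9.84 and 9.61 in 4T1-A, against 6.17 and 7.12 in 4T1-S. Both 4T1-S arrays lay below both 4T1-A arrays, but the difference of -0.55 ± 0.19 (95% interval -0.99 to -0.12) did not pass over all genes (adjusted p = 0.108).

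The enzymes that make and recycle glutathione did not pass, with 0 of 4 called, against 6.96 percent of all genes tested. Gclc, the catalytic subunit of glutamate-cysteine ligase, differed by 0.42 ± 0.19 and Gclm, its modifier subunit, by -0.47 ± 0.20 (adjusted p = 0.189 and 0.178). The arrays did not overlap for either, Gclc being above and Gclm below in 4T1-S. Glutathione synthetase, Gss, differed by 0.20 ± 0.25, and glutathione reductase, Gsr, by -0.33 ± 0.21, with its 3 probes between -0.33 and 0.027. Haem oxygenase 1, Hmox1, an inducible NRF2 target that breaks down haem, differed by 0.32 ± 0.18 (95% interval -0.10 to 0.74), and G6pdx, the X-linked enzyme that feeds NADPH to both reductases, by 0.30 ± 0.19.

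Among thioredoxin genes 0 of 4 passed, against 6.96 percent of all genes tested. Txn1 (-0.027 ± 0.28), its reductase Txnrd1 (-0.23 ± 0.18) and sulfiredoxin Srxn1 (0.072 ± 0.20), which repairs overoxidised peroxiredoxins, all had intervals that include 0. Txnip, which binds and inhibits thioredoxin and responds to glucose, stood at 0.625 and 1.96 in 4T1-A, against 2.28 and 2.20 in 4T1-S. The 4T1-A arrays were 1.65 apart on the log2 scale, the widest gap between replicates of any tested member, and the 4T1-A array at 1.96 lay close to the 4T1-S arrays. The difference of 1.01 ± 0.46 did not pass (adjusted p = 0.191). The difference was 1.84 without 4T1-A replicate 2 and 0.19 without 4T1-A replicate 1, so it rests on which of these arrays is read. A second Txnip probe also had one low 4T1-A array, at 0.0678 and 0.170 in 4T1-A, against 0.209 and 0.159 in 4T1-S.

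The enzymes that remove peroxide and superoxide differed by 0.36 or less, with 0 of 12 tested called by limma, against 6.96 percent of all genes. At an unadjusted p under 0.05 the count was also 0, where 20.5 percent of all genes were higher and 8.19 percent lower. The peroxiredoxins ranged from -0.0030 for Prdx5 of mitochondria and peroxisomes to 0.26 for mitochondrial Prdx3, with Prdx1 at 0.10, Prdx2 at 0.094, Prdx4 of the endoplasmic reticulum at 0.16 and Prdx6 at 0.033. Copper-zinc superoxide dismutase, Sod1, stood at 156.4 and 153.6 in 4T1-A, against 168.2 and 176.8 in 4T1-S (0.15 ± 0.18), and mitochondrial Sod2 differed by 0.13 ± 0.21. The selenoenzymes Gpx1 and Gpx4, the latter the reductase of lipid hydroperoxides that holds back ferroptosis, differed by -0.086 ± 0.20 and -0.11 ± 0.20. For the brightest probes of these 10 genes the 95% intervals together spanned -0.57 to 0.76. A change of 2-fold lies outside that span, and changes inside it remain possible. Dimmer probes set no such limit, with intervals of -1.50 to 0.49 for 1 of Sod1 and -1.57 to 0.87 for 1 of Prdx6. Catalase, Cat (0.36 ± 0.29), and Gpx2, the epithelial peroxidase (0.33 ± 0.26), had wider intervals, up to 1.03 and 0.95.

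Probes of a gene were compared in a second fit over 23690 probes, of which 4.51 percent were called. Of 56 tested probes of members, 3 were higher and 2 lower. These were the probes of Mgst2, Gsta2, Gsta4 and Gstk1 and 1 of 2 tested probes of Mgst3, a microsomal transferase and peroxidase. That probe fell from 1.07 and 1.01 in 4T1-A to 0.574 and 0.514 in 4T1-S (-0.93 ± 0.19, adjusted p = 0.0401), while the brighter probe differed by -0.50 (adjusted p = 0.160). Mgst3 is named after its values were seen. In 12 genes with more than 1 tested probe, the differences within a gene spanned at most 0.66, in Sod1, and in 5 genes they took both signs, all with differences that did not pass.

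**Figure D4:**
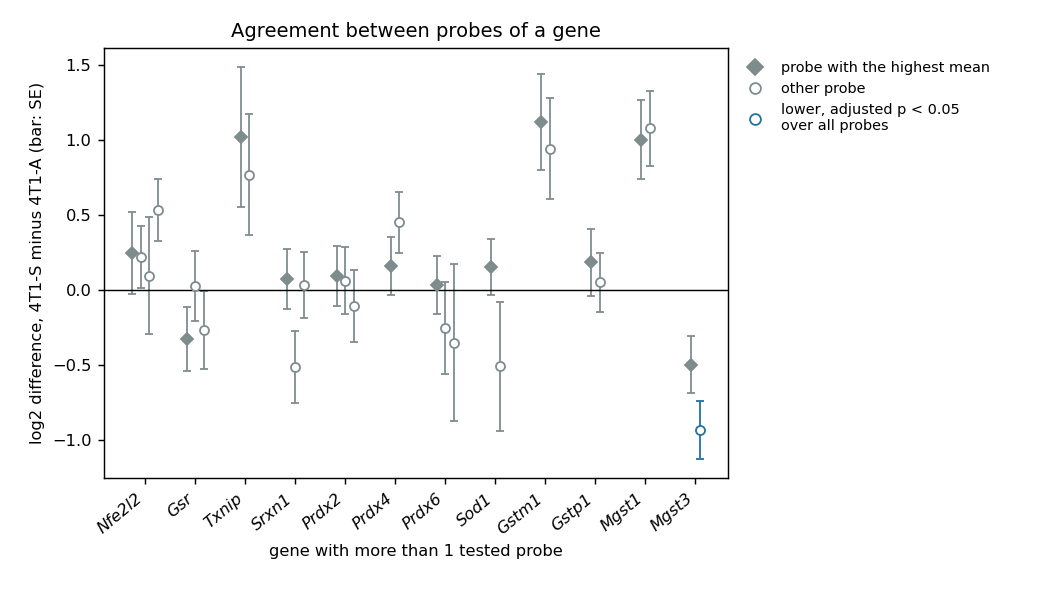
Difference between 4T1-S and 4T1-A on the log2 scale (y axis, SE as bars) for every tested probe of the 12 members with more than 1 tested probe (x axis), diamonds marking the probe with the highest mean. Both probes of Gstm1, Mgst1 and Txnip lie above 0.7, and both tested probes of Mgst3 lie below 0, where only the dimmer passed.

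Of 132 other genes of the pathway, grouped in 7 lists by role, 112 were tested, 7 rose, 6 fell and 99 did not pass. That is 11.6 percent called, 6.25 percent higher and 5.36 percent lower, against 6.96, 3.95 and 3.01 percent of all genes tested. The median difference was 0.092. Ggt6 and Ncf4 could be tested only through the 4T1-S arrays and Cbr3 only through the 4T1-A arrays, in each case where they were brighter. With the filter on all 4 arrays, 5 of 102 pathway genes were higher and 5 lower, against 303 and 305 of 14203 genes. Without 4T1-S replicate 1 the count of 13 fell to 4 and without 4T1-S replicate 2 to 3.

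Among regulators and partners of NRF2, 1 of 11 tested rose, 0 fell and the median was 0.012. That gene was Bach2, a BTB repressor of B cells that binds the same elements with small Maf proteins, which stood at 0.0843 and 0.171 in 4T1-A, against 0.509 and 1.1 in 4T1-S (2.64 ± 0.42, adjusted p = 0.0118). Its arrays differed by about 2-fold within each sub-line, and it failed to pass without 4T1-S replicate 2 (adjusted p = 0.0919), with normexp (1.68, 0.0877) and with no filter (0.104). Bach1, the more widely expressed relative that represses Hmox1, differed by -0.15 ± 0.18.

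Other NRF2 targets numbered 23 tested, with 1 risen, 2 fallen and a median of 0.090. The carbonyl reductases Cbr3 and Cbr1 fell. Cbr3 went from 0.218 and 0.182 in 4T1-A to 0.0281 and 0.0132 in 4T1-S, with neither 4T1-S array well above background, and was at least 3.48-fold lower (adjusted p = 0.00113). With normexp it differed by -1.0 (adjusted p = 0.0421). Cbr1 went from 1.89 and 1.71 to 0.955 and 0.792 (-1.05 ± 0.20). Abcc4, an exporter of organic anions and glutathione conjugates, rose from 2.35 and 2.70 to 6.23 and 8.10 (1.49 ± 0.21, adjusted p = 0.00643). Nqo1, the quinone reductase often used to read NRF2 activity, stood at 0.426 and 0.505 against 0.628 and 0.767 (0.58 ± 0.20, adjusted p = 0.116), and Slc7a11, the cystine importer, at 0.421 and 0.739 against 1.16 and 0.891 (0.86 ± 0.29, adjusted p = 0.106). Both were higher on both 4T1-S arrays and did not pass. Slc7a11 passed when its probes were averaged (1.21, adjusted p = 0.0473). It differed by 1.27 without 4T1-A replicate 2 and by 0.46 without 4T1-A replicate 1. The call of Cbr1 was lost without 4T1-S replicate 1 or 2 (adjusted p = 0.0774 and 0.154), that of Abcc4 without 4T1-S replicate 2 (0.0709), and both with no filter (0.0927 and 0.0656).

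In NADPH supply 1 of 12 tested rose, 0 fell and the median was 0.11. It was Me3, a mitochondrial malic enzyme, from 0.142 and 0.175 to 0.343 and 0.345 (1.13 ± 0.20, adjusted p = 0.0162), and it was lost without 4T1-S replicate 1 or 2 (0.103 and 0.120), with scaling to the median (0.0570), normexp (0.0599) and no filter (0.0846). The pentose phosphate enzymes Pgd, Taldo1 and Tkt differed by -0.043, 0.056 and -0.12.

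Of 21 other glutathione genes tested, 1 rose, 1 fell and the median was 0.077. Ggct, which breaks down gamma-glutamyl amino acids, fell from 11.5 and 7.12 to 3.48 and 3.62 (-1.35 ± 0.25, adjusted p = 0.0227). Ggt6, of the gamma-glutamyltransferase family, was below the background threshold on both 4T1-A arrays and at least 1.84-fold higher in 4T1-S. It did not pass whichever single array was left out (adjusted p from 0.0508 to 0.191), nor with scaling to the median (0.135), quantile normalization (0.191), cyclic loess (0.257), no filter (0.110) or normexp (0.16, 0.539). Ggct lost its call without 4T1-S replicate 1 or 2 (0.131 and 0.133), with normexp (0.0703) and with no filter (0.109).

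Of 19 other thioredoxin genes tested, 1 rose, 2 fell and the median was 0.15. Msrb2, a mitochondrial methionine sulfoxide reductase, fell from 4.86 and 5.11 to 1.19 and 1.27, or 4.06-fold (-2.02 ± 0.18, adjusted p = 6.65e-04), and passed under all 15 alternatives. Of the 3 stress-induced sestrins, Sesn1 did not pass (0.18 ± 0.19, adjusted p = 0.553), with Sesn3 fallen from 2.85 and 3.65 to 0.743 and 1.19 (-1.78 ± 0.27) and Sesn2 risen from 2.37 and 4.05 to 7.71 and 7.10 (1.25 ± 0.27, adjusted p = 0.0356). Sesn3 did not pass without 4T1-S replicate 1 (adjusted p = 0.0614) or with no filter (0.0865), and the mean of its probes gave -0.90 (0.0255). Sesn2 did not pass when either 4T1-S array was left out (0.170 and 0.157), nor without 4T1-A replicate 1 (0.0817), and likewise with scaling to the median (0.0871), quantile normalization (0.0599), cyclic loess (0.0538), normexp (0.0858) and no filter (0.127).

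**Figure D5:**
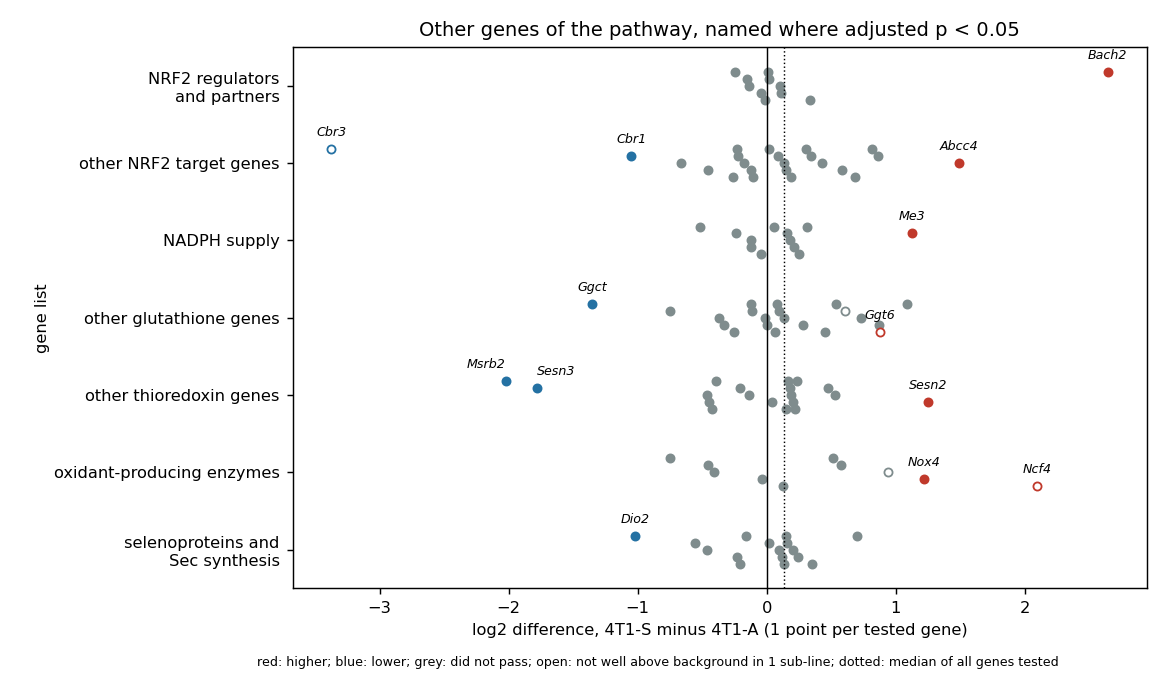
Difference between 4T1-S and 4T1-A on the log2 scale (x axis) of the 112 tested genes in 7 lists of related genes (y axis), 1 point per gene with the vertical offset within a list carrying no meaning. The 13 genes that passed are named, and most others lie within 1 unit of 0.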

How the data were processed

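Per the submitters' processing notes and the file headers, Agilent Feature Extraction 9.1 read an intensity for each spot of the one-colour Cy3 arrays, background-subtracted and detrended, with no scaling between arrays. Flags for spots well above background, saturated or outlying are other deposited columns. The deposited series table holds a ratio, the intensity over the array's 75th percentile, as found from its values. Each processed intensity was divided by its array's 75th percentile over 43379 spots and put on the log2 scale. Between 5 and 9 outlier spots per array were left out and spots of a probe averaged. The 4T1-A replicate 1 file has 47 altered gene names, so names came from another file. Of 41174 probes, 22951 were named by accession and 9768 by symbol (GRCm38.p6). A gene was read by its brightest probe and tested where both arrays of at least 1 sub-line had it well above background.

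Sub-lines were compared over 16172 genes with limma 3.58.1 in R 4.3.3 (2-sided, residual degrees of freedom 2, prior 5.71), adjusted by Benjamini-Hochberg at 0.05. Differences are 4T1-S minus 4T1-A with SE and 95% intervals. The number of arrays limits the precision. A fold against a sub-line not well above background is a bound, the brighter mean over a floor: on each dim array the floor is the lowest signal that counted as well above background, or the probe's signal if that was higher. Described in full are members that passed, differed by at least 0.8, were above background in only 1 sub-line or had probes spanning over 1, with Nfe2l2 and Keap1, and, in each list, up to 4 genes passing per direction, Nqo1, Slc7a11 and G6pdx. Members and lists were chosen with earlier results of these data known. The procedure was tested on simulated data.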

Additional observations from a re-analysis of the deposited data

How the results depend on the processing

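The 15 alternatives were other scalings and background corrections, the authors' series table, filters, probe averaging, a variance trend, outlier spots, a replicate block and leaving out each array. Mgst2 and Msrb2 passed under all 15 and Cbr3 under the 14 that gave it a value. Nfe2l2 reversed to -0.045 with scaling to the median, -0.014 without 4T1-A replicate 1 and -0.041 without 4T1-S replicate 2, and leaving out 1 array gave at most 0.53. Over all genes the 1126 calls became 731 with quantile normalization, 388 with normexp, 271 with no filter on background and 608 with the filter on all 4 arrays. Members called fell from 4 to 2 with cyclic loess, 2 with normexp and 1 with no filter. Pathway genes called fell from 13 to 5 with normexp and 2 with no filter. The 1068 probes called became 391 with normexp, 302 with no filter and 579 with the filter on all 4 arrays. The cause of these shifts was not tested. Leaving out 1 array gave between 310 and 1823 genes, 1 and 9 members, 3 and 18 pathway genes and 450 and 2249 probes. Where 1 array was left in a sub-line, it was assumed to vary like the other sub-line. Without either 4T1-A array every gene was given the same SE, 0.32, with no spread of its own. Without a 4T1-S array the SEs differed between genes. Adjusted p-values and counts from leaving out a 4T1-A array therefore cannot be compared with those from leaving out a 4T1-S array.

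The titles give both sub-lines replicate numbers 1 and 2, but no label says what a number shares. Across genes, the gap between replicates in 4T1-A correlated with that in 4T1-S at r = 0.42. With the replicate block, with 1 residual degree of freedom, 3685 genes, 10 members, 27 pathway genes and 4662 probes were called. The members gained were Keap1, Gsta3, Gstm1, Gstm2, Gstt1 and Mgst1, with Keap1 at an adjusted p of 0.0455, and among the other genes named in full Nqo1 also passed (0.0354).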

Other observations

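Of 16 listed genes for enzymes that produce oxidants, 10 were tested (62.5 percent, against 58.4 percent of all gene names). Of these, 2 rose, 0 fell and 8 did not pass, where 3.95 percent of all genes tested rose and 3.01 percent fell. The median was 0.32, or 0.29 with genes not well above background in 1 sub-line at their bound. Nox1, Ncf4 and Duox2 were above background on both arrays only in 4T1-S, where they were brighter. Xdh was so only in 4T1-A, where it was brighter, and the other 6 were above background on all 4 arrays. With more genes let in through 4T1-S than through 4T1-A, the median favours higher values. Nox4, a constitutively active NADPH oxidase that makes hydrogen peroxide, stood at 0.157 and 0.151 in 4T1-A, against 0.331 and 0.389 in 4T1-S (1.22 ± 0.19, adjusted p = 0.0102). Ncf4, a cytosolic subunit of the phagocyte oxidase, was below the background threshold on both 4T1-A arrays and higher in 4T1-S by at least 2.75-fold (adjusted p = 0.00533). Without 4T1-S replicate 1 or 2 both calls were lost (adjusted p = 0.0539 and 0.103 for Nox4, 0.0535 and 0.0696 for Ncf4), as they were with normexp (0.73, 0.0606 and 0.62, 0.0769) and with no filter (0.0677 and 0.0770).

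Selenoproteins and the genes that make selenocysteine showed 0 rises and 1 fall among 16 tested (median 0.11). Of all genes tested, 3.95 percent rose and 3.01 percent fell. The gene that fell was Dio2, which activates thyroid hormone, from 0.250 on both 4T1-A arrays to 0.145 and 0.104 in 4T1-S (-1.02 ± 0.22, adjusted p = 0.0350). It did not pass without 4T1-S replicate 1 or 2 (0.0628 and 0.177), with normexp (-0.50, 0.104) and with no filter (0.116).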
